A study of Mus musculus with 16 samples.

Results

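Fast skeletal muscle genes were read in RNA of mouse spinal cord. The 10 genes Acta1, Myh4, Mylpf, Tnnt3, Tnni2, Tnnc2, Actn3, Atp2a1, Ckm and Car3 were chosen by name, with earlier results of these arrays known, and a probe set was taken where the platform annotation gives it 1 of these symbols. That yielded 16 of 12488 probe sets, and the 10 genes stand among 8251 with a single symbol on the array. The difference between spastic and control samples may have drawn attention to these genes, so its values and its calls are given as a description and support nothing. What was tested is the level of each gene against that of Acta1 from sample to sample, with the group means taken out. That measure does not use the difference between the groups, although earlier results known when the genes were chosen may have touched on it.

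Fast muscle fibres contract when calcium released inside the fibre binds the troponin complex on actin filaments and frees the actin for myosin. Calcium pumps then clear the calcium, and creatine kinase restores the ATP that myosin and the pumps spend. These genes are highly expressed in muscle around the vertebral column, and most of them are not known as genes of neurons or glia.

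The series holds 16 single-colour arrays of spinal cord RNA, and its titles give 3 groups. Control arrays, 8 in number, are titled 9 or 12 months, female or male, and the strain and genotype of these mice are not given in the sources used here. Spastic arrays, 6 in number, are titled Spa-M6moF (arrays a and b), Spa1-2moF, Spa2-2moF, Spa-sev-3moM and Spa3+moM, which gives ages from 2 to 6 months and the titled sex. The spastic mutation is recessive and lies in Glrb, which encodes the beta chain of glycine receptors in inhibitory synapses. The B6C3Fe arrays, 2 in number, are titled 1 month and male; B6C3Fe is a hybrid mouse stock. No drug or other treatment is named for any group. Group and age change together, so they cannot be told apart. The labels do not say whether arrays a and b of a title are separate animals, whether animals were pooled, or how the cord was dissected. Averaging arrays of a title gave 10 samples, of which 4 were control, 5 spastic and 1 B6C3Fe, and every p-value refers to the spread between those, which may be technical.

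Values are the deposited linear intensities. For the fits, intensities under 60.9 (5.93 on the log2 scale) were raised to that floor. Median intensities of the arrays lay between 289.0 and 383.6. Of 9 spinal cord genes measured, 3 were called between spastic and control samples with limma, where 19.8% of all probe sets tested were called. Nefl, a neurofilament gene, was lower by a log2 difference of -1.10. Nefm, another, and Hoxd10, a gene of cord position, were higher by 0.39 and 0.94. Among those not called, Mbp of myelin ran from 9278 to 26646 over the control and spastic arrays and Snap25 of neurons from 16018 to 23822. Glrb itself lay between 968.9 and 2218 on the spastic arrays and between 6670 and 10089 on the control arrays. Xist, which is transcribed in females, was high on both spastic arrays titled male. The 3-prime to 5-prime log2 ratio of the Pcx control probe sets, a measure of RNA or labelling quality, spanned 1.31 to 2.72 on control, 2.00 to 2.98 on spastic and 1.67 to 1.89 on B6C3Fe arrays.

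Promoters are shown for Acta1, against whose level the other genes were read, for Atp2a1, which followed it, and for Myh4, which departed from it in the spastic samples. The sequences are the 250 bases before the gene's start in RefSeq, build GRCm38.p6, written 5′ to 3′ on the gene's strand: Acta1 at chr8:123894776-123895025 (minus strand), Atp2a1 at chr7:126463074-126463323 (minus strand) and Myh4 at chr11:67237562-67237811 (plus strand). Capitals mark matches, on either strand, to the TATA box, an E-box, the MCAT element, the CArG box and the MEF2 box, whose letters follow below the sequences where they can be spelled out.
Acta1: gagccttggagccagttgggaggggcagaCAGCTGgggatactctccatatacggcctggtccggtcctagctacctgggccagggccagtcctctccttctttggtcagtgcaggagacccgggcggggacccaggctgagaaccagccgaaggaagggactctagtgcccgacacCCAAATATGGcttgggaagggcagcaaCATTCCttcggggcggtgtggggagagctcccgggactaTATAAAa
Atp2a1: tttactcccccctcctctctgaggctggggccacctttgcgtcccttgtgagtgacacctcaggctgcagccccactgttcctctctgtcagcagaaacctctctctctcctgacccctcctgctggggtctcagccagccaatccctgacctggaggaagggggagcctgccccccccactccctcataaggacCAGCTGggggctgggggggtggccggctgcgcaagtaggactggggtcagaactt
Myh4: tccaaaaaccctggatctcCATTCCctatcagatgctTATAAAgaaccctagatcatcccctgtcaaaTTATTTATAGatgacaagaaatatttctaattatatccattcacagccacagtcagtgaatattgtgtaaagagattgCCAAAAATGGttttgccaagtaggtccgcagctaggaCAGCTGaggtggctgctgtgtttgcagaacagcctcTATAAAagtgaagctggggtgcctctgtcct

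A promoter was found for 6 of the 10 genes; Tnnt3, Tnni2, Actn3 and Car3 are named only. CAGCTG, a form of the E-box CANNTG that myogenic factors bind, occurred in 5 of the 6 and in 13.1% of the 32536 promoters of the table. CANNTG in any form occurred in 6 of 6 and in 66.2% of all. The TATA box, searched as TATAAA, occurred in 2 and in 12.3% of all. The MCAT element, searched as CATTCC, occurred in 2 and in 12.6%. The CArG box, which serum response factor binds, occurred in 2 and in 1.48%, and the MEF2 box in 1 and in 2.89%. Every CAGCTG is also counted as a CANNTG; only the first is in capitals. A match is a stretch of letters and not a known site. By position, 5 of the 10 genes lie on chromosome 7 (Ckm, Atp2a1, Mylpf, Tnni2 and Tnnt3), where 1 protein-coding gene separates Tnni2 from Tnnt3; Acta1 lies on chromosome 8, Myh4 on 11, Tnnc2 on 2, Car3 on 3 and Actn3 on 19.

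Acta1, the skeletal actin of the thin filament, was measured by 1 probe set, 100381_at. Its intensity on the control arrays was 3605 and 3416 in the 12-month females, 2433 and 2346 in the 12-month males, 5573 and 4612 in the 9-month females and 3763 and 3294 in the 9-month males. On the spastic arrays it was 6426 in Spa2-2moF, 3440 in Spa-sev-3moM, 1561 in Spa1-2moF, 376 and 477 in Spa-M6moF and 316 in Spa3+moM, and it was 2234 and 2020 in B6C3Fe. The spastic group thus held both the highest and the lowest arrays of the series, and the groups overlapped. The highest spastic sample lay 20.3-fold above the lowest, against 2.38-fold between the extreme control arrays. Arrays a and b of a title differed by at most 0.34 on the log2 scale. On the log2 scale Acta1 averaged 11.77 ± 0.44 (SD, n = 4) in control and 10.41 ± 1.88 (SD, n = 5) in spastic samples and was 11.05 in the B6C3Fe sample. In whole tissue, fewer muscle cells and less RNA per cell cannot be told apart.

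**Figure D1:**
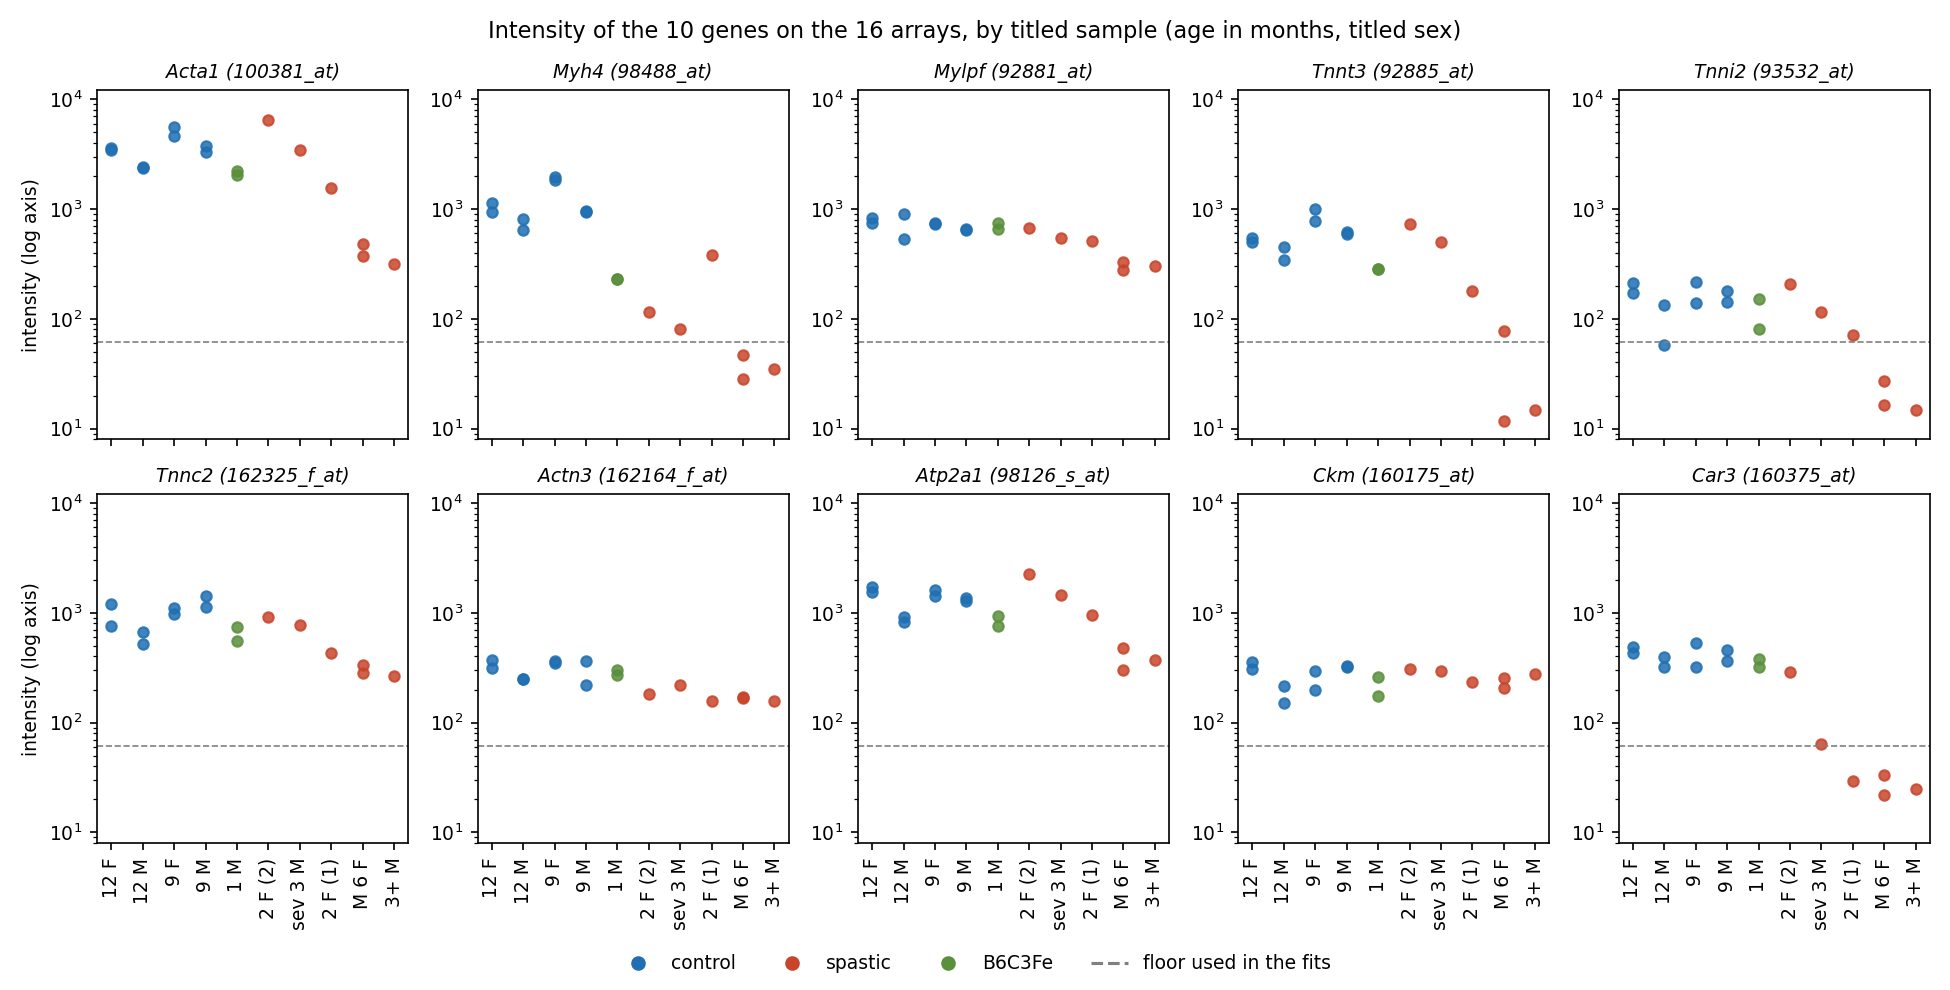
Intensity (log axis) of the highest probe set of each of the 10 genes on the 16 arrays, 1 point per array, by titled sample with spastic samples ordered by their Acta1 level; the dashed line is the floor of 60.9. Acta1 in the spastic arrays runs from 316 to 6426, while Myh4 and Car3 lie below every control array in all of them.

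Myh4, the heavy chain of the fastest myosin, is the motor of type IIB fibres. With probe set 98488_at its intensity on the control arrays had a minimum of 643, a median of 949 and a maximum of 1940, the maximum in the 9-month females. On the spastic arrays it was 382 in Spa1-2moF, 115 in Spa2-2moF, 80.1 in Spa-sev-3moM, 35.0 in Spa3+moM and 28.0 and 46.6 in Spa-M6moF, and it was 228 and 229 in B6C3Fe. No spastic or B6C3Fe array reached the control range. Within the spastic group the order differed from that of Acta1, since Spa1-2moF was highest and Spa2-2moF, with the most Acta1 of any array, was lower. The second Myh4 probe set, 161545_r_at, gave 186 to 373 in control and 287 to 440 in spastic arrays, which overlap, and does not show this difference.

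Mylpf, the regulatory light chain of fast myosin, had intensities of 538 to 896 (median 735) on control arrays with probe set 92881_at. On spastic arrays it was 665 in Spa2-2moF, 547 in Spa-sev-3moM, 516 in Spa1-2moF, 280 and 328 in Spa-M6moF and 303 in Spa3+moM, and it was 660 and 751 in B6C3Fe. The 2 spastic samples with the least Acta1 were also the 2 with the least Mylpf. The second probe set, 162101_f_at, was at the floor on 13 of 16 arrays, among them all 6 spastic ones.

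The troponin genes encode the calcium switch: Tnnt3 the subunit that binds tropomyosin, Tnni2 the inhibitory subunit and Tnnc2 the calcium sensor. Tnnt3 (92885_at) spanned 345 to 1009 (median 569) on control arrays. On the spastic arrays it was 726 in Spa2-2moF, 501 in Spa-sev-3moM, 180 in Spa1-2moF, 76.9 and 11.8 in Spa-M6moF and 14.8 in Spa3+moM, and it was 284 and 283 in B6C3Fe. The order of the 5 spastic samples was that of Acta1.

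Tnni2 (93532_at) had intensities of 58.3 to 217 (median 157) in control, 14.9 to 209 (median 49.4) in spastic and 81.4 to 152 in B6C3Fe arrays. Its mean level was under the limit for testing, and 3 of 6 spastic arrays were at the floor. Tnnc2 (162325_f_at) spanned 525 to 1430 (median 1046) in control, 268 to 912 (median 383) in spastic and 549 to 738 in B6C3Fe arrays. For both genes Spa2-2moF was the highest spastic sample and Spa3+moM held the lowest array, and control and spastic ranges overlapped. The second Tnnc2 probe set, 93259_at, was at the floor on all 16 arrays.

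Actn3, the actinin that anchors actin at the Z-disc of fast fibres, was measured by 2 probe sets. With 162164_f_at, control arrays ran from 219.4 to 370.5, spastic arrays from 156.4 to 219.3 and B6C3Fe arrays from 270.0 to 298.5. The gap between the groups was narrow there, with the highest spastic and lowest control arrays almost level. With 100879_at, control arrays ran from 244 to 709, B6C3Fe arrays from 258 to 308 and spastic arrays from 76.7 to 142, and the lowest of the spastic values came from Spa2-2moF. Control and spastic arrays did not overlap with either probe set.

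Atp2a1, the calcium pump of fast fibres, spanned 828 to 1705 (median 1398) on control arrays with 98126_s_at. On spastic arrays it was 2260 in Spa2-2moF, 1466 in Spa-sev-3moM, 946 in Spa1-2moF, 300.3 and 473 in Spa-M6moF and 373 in Spa3+moM, and it was 760 and 933 in B6C3Fe. Spa2-2moF lay above every control array, as for Acta1. The second probe set, 162223_f_at, spanned 263 to 899 in control, 56.2 to 712 in spastic and 113 to 236 in B6C3Fe arrays.

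Ckm, the muscle creatine kinase, was represented by 2 probe sets that behaved differently. With 160175_at control arrays spanned 151 to 354, spastic arrays 205 to 310 and B6C3Fe arrays 176 to 258, and the groups overlapped. With 161569_f_at they spanned 120 to 343, 23.8 to 284 and 62.3 to 63.0, and 3 of 6 spastic arrays were at the floor. Car3, a carbonic anhydrase abundant in muscle and also in fat, spanned 321 to 525 (median 414) on control arrays with 160375_at. On spastic arrays it was 291 in Spa2-2moF, 63.6 in Spa-sev-3moM, 29.1 in Spa1-2moF, 21.8 and 33.5 in Spa-M6moF and 24.6 in Spa3+moM, and it was 376 and 319 in B6C3Fe. All spastic arrays were below every control array, with Spa2-2moF close to them and 4 of 6 at the floor.

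Between the groups, 9 of the 10 genes could be tested with limma, with Benjamini-Hochberg adjustment over 6427 probe sets. Of these 9, 3 were called lower in spastic than in control samples and 0 higher, where 19.8% of all probe sets were called, 9.93% lower and 9.83% higher. Nothing is read from that count, since this contrast may have chosen the genes. The 3 were Myh4, with a log2 difference of -3.44 (SE 0.44), Car3 with -2.33 (SE 0.42) and Actn3 with -0.80 (SE 0.20). These 3 and Tnnt3 had spastic means below the limit for testing (7.62 on the log2 scale) and passed it only through the groups where they were high, so a difference was built into their being tested. The log2 differences of the others were -1.61 for Tnnt3, -1.42 for Acta1, -0.97 for Tnnc2, -0.70 for Mylpf, -0.65 for Atp2a1 and 0.03 for Ckm. The median over the 9 was -0.97, beside -0.02 over all probe sets tested. Without Spa2-2moF or without Spa-sev-3moM, 6 of the 9 were called lower; without Ctr12moF Actn3 was not called, and without the 2 spastic samples titled male Car3 was not. With the floor at the 10th percentile the second Myh4 probe set stood for the gene, with a difference of 0.17. With the Pcx ratio in the model 0 of the 9 were called, and the difference of Myh4 was then -3.03, that of Car3 -1.59 and that of Acta1 0.78; 9 of all probe sets were called in that fit.

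The other contrasts called 0 of the 9 genes with limma. For B6C3Fe minus control 0.389% of all probe sets were called, and at an unadjusted p under 0.05 there was 1 of the 9 genes and 965 of all. That gene was Myh4, with a log2 difference of -1.79 (SE 0.75, adjusted p = 0.30). For spastic minus B6C3Fe 2.05% were called, with 2 of the 9 genes and 1304 of all probe sets at an unadjusted p under 0.05; Car3 differed by -2.33 (SE 0.73, adjusted p = 0.125) there, and 1 of the 9 genes was called without Spa2-2moF. Both contrasts rest on the same B6C3Fe sample, and each shares its other samples with the contrast above. Their fits include titled sex, which Xist goes against in 2 spastic samples. As plain differences from the control mean, B6C3Fe was at -2.23 for Myh4 (fitted -1.79) and -0.24 for Car3 (fitted 0.00). For 12 minus 9 months among controls 0% were called, with 0 of the 9 genes and 346 of all at that unadjusted level. For female minus male as titled 0% were called as well, with 0 of the 9 and 389 of all, and 2 spastic titles go against Xist in that contrast.

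Whether the genes followed 1 level per sample was asked by fitting each probe set's log2 intensity on group and on the log2 level of Acta1. The slope is the log2 change of a gene per 1 log2 unit of Acta1 among samples of a group. The fit held 10 samples, but the lone B6C3Fe sample has its own group term and adds nothing to the slope. Acta1 varied more among spastic (SD 1.88, n = 5) than among control samples (SD 0.44, n = 4), so the spastic samples weigh most. Of 8 genes tested besides Acta1, 3 were called, all with a positive slope, where 0.156% of 6426 probe sets were called (10, all positive). Tnnt3 had a slope of 0.87 (SE 0.06, adjusted p = 7.65e-05 in limma), Atp2a1 of 0.62 (SE 0.05, adjusted p = 9.63e-05) and Tnnc2 of 0.43 (SE 0.06, adjusted p = 0.0331). Whether the probe sets behind the last 2, 98126_s_at and 162325_f_at, share transcripts with related genes was not tested. The slopes of Tnnt3 and Atp2a1 were called in 9 of 9 fits that left out 1 sample each. That of Tnnc2 was called in 3 of 9 such fits; it was lost without Ctr12moF, Ctr9moF, Spa-M6moF, Spa-sev-3moM, Spa3+moM or Spa2-2moF (limma's adjusted p = 0.425 without the last), with its slope between 0.40 and 0.44 throughout. The 10 probe sets called became 6 without Ctr12moF, Ctr12moM, Ctr9moF or Spa-M6moF and 5 without Spa2-2moF. With Ckm or Tnni2 in place of Acta1 0 of the genes were called, and with the floor at the 40th percentile the slope of Tnnt3 was 0.44 and not called.

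The other genes did not pass the test. Mylpf had a slope of 0.26 (SE 0.05) with an adjusted p of 0.0770 in limma, Car3 of 0.36 (SE 0.13, 0.456), Myh4 of 0.26 (SE 0.18, 0.626), Actn3 of 0.08 (SE 0.07, 0.704) and Ckm of 0.08 (SE 0.08, 0.757). The median slope of the 8 was 0.31, beside 0.01 over all probe sets tested. Probe sets outside the test had slopes of 0.82 for Atp2a1 162223_f_at, 0.50 for Ckm 161569_f_at, 0.39 for Tnni2, 0.03 for Actn3 100879_at and -0.08 for Myh4 161545_r_at. Slopes of different probe sets are not compared in size, since each probe set has its own background and its own share of values at the floor.

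**Figure D2:**
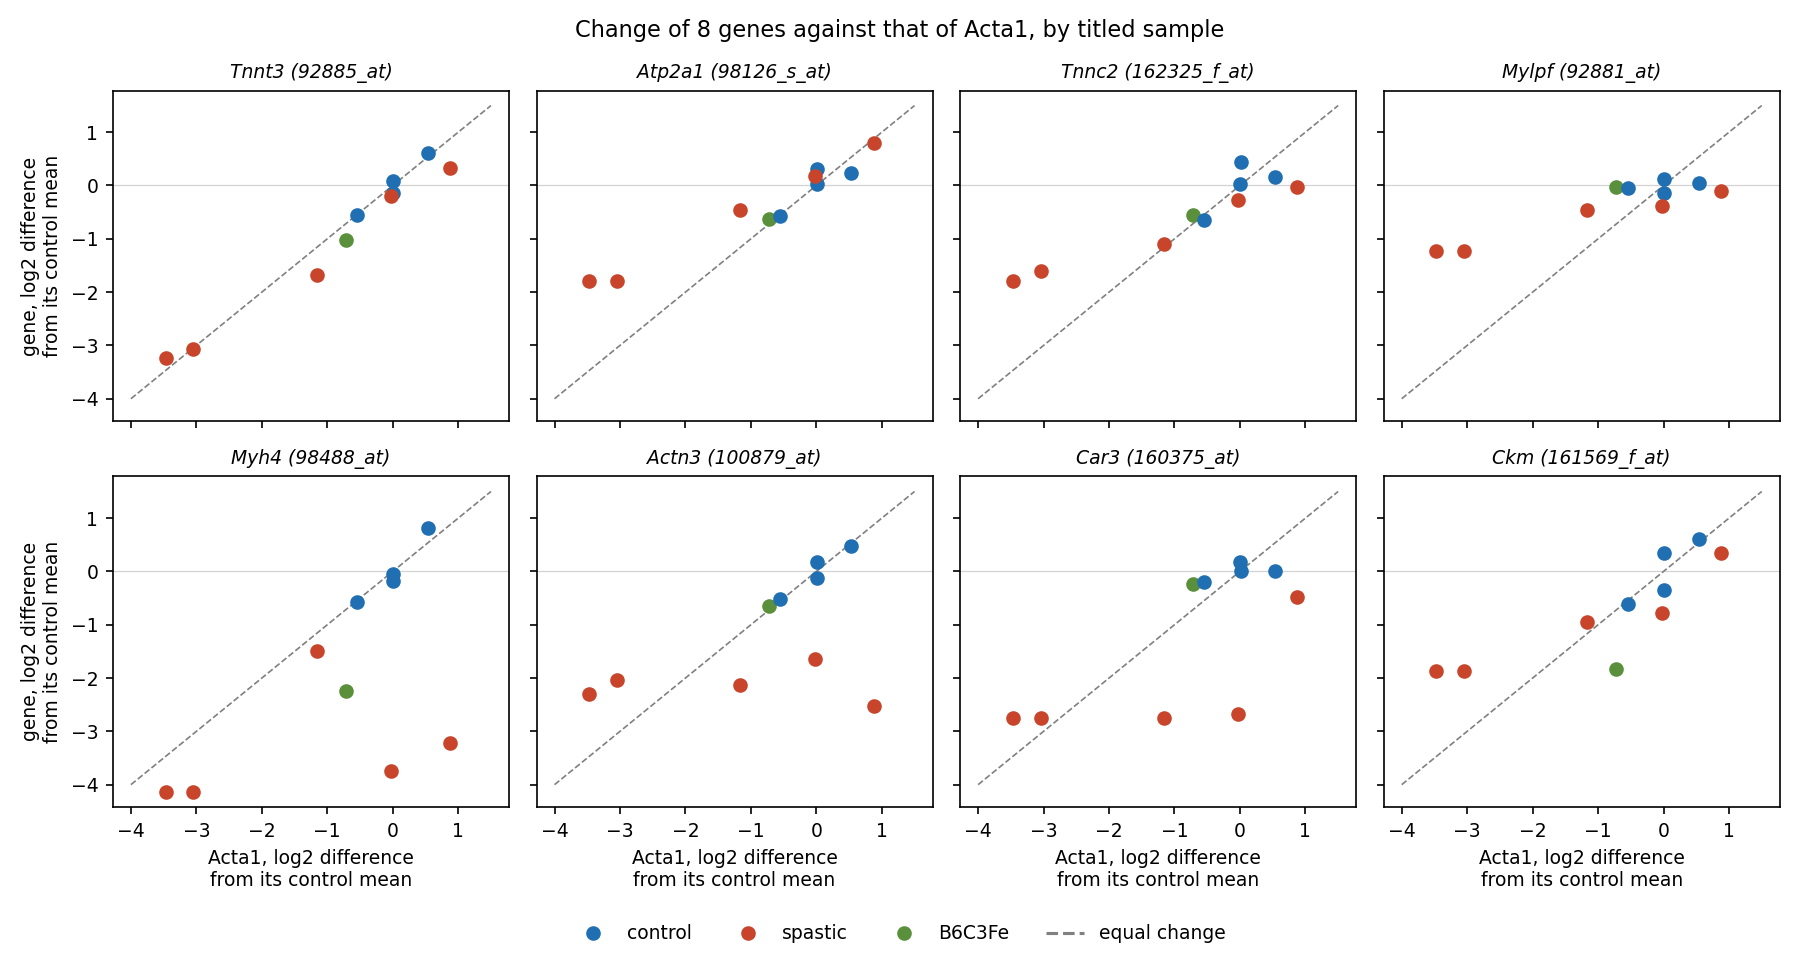
Log2 difference of 8 genes from their own control mean (y axis) against that of Acta1 (x axis), 1 point per titled sample (4 control, 5 spastic, 1 B6C3Fe), with intensities raised to the floor; the dashed line marks equal change. Actn3 and Ckm are drawn with 100879_at and 161569_f_at, which were not tested, and the others with their tested probe sets. In Spa2-2moF all 8 genes lie below the line, from -0.08 log2 units for Atp2a1 to -4.10 for Myh4. Between them are Actn3 (-3.40), Car3 (-1.36), Mylpf (-0.98), Tnnc2 (-0.90), Tnnt3 (-0.54) and Ckm (-0.52). In Spa-sev-3moM Myh4 (-3.72), Car3 (-2.66) and Actn3 (-1.61) lie furthest below.

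Ratios of the genes to Acta1 are given first for the 2 spastic samples with the most Acta1. A gene whose slope on Acta1 is under 1 reads lower by this measure where Acta1 is high than where it is low. In Spa2-2moF, Acta1 lay 0.88 log2 units above the control mean. There the ratio of Myh4 to Acta1 was 17.2-fold below the control mean of that ratio, and that of Car3 2.57-fold. For Actn3 it was 10.6-fold below with 100879_at and 3.07-fold below with the tested probe set 162164_f_at. Mylpf was 1.97-fold below, Tnnc2 1.87-fold, Tnnt3 1.46-fold and Tnni2 1.30-fold. Ckm was 1.55-fold below with 160175_at and 1.44-fold with 161569_f_at. Atp2a1 was 1.05-fold below, which is little change. These ratios are not ranked between genes, since each probe set has its own background and its own share of values at the floor. In Spa-sev-3moM, where Acta1 was at -0.02 from the control mean, Myh4 was 13.2-fold below the control ratio, and Car3 6.31-fold, while Tnni2 was 1.27-fold below. Actn3 was 3.05-fold below there with 100879_at and 1.36-fold below with 162164_f_at, so the probe sets of this gene disagree in size. On the same scale the ratio of Myh4 to Acta1 in the 4 control samples lay between 0.83 and 1.14. Spa2-2moF and Spa-sev-3moM are single arrays, so their ratios have no replicate of their own. In Spa-M6moF and Spa3+moM, with the least Acta1, many ratios lay above control instead. In log2 units they were 1.81 and 2.23 for Mylpf, 2.20 and 2.51 for Actn3 162164_f_at and 1.44 and 1.68 for Tnnc2. Atp2a1 (98126_s_at) was at 1.26 and 1.67, Car3 at 0.30 and 0.72, Tnnt3 at -0.03 and 0.23 and Myh4 at -1.10 and -0.67. Car3 and Myh4 were at the floor in both samples.

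At equal Acta1 the fitted log2 difference between spastic and control samples was -2.99 (SE 0.69) for Myh4, -2.08 (SE 0.30) for Actn3 100879_at and -0.68 (SE 0.15) for its tested probe set 162164_f_at, -1.79 (SE 0.46) for Car3, -0.39 (SE 0.14) for Tnnt3 and 0.24 (SE 0.14) for Atp2a1. These are descriptions, since they use the contrast between the groups. In the 1 B6C3Fe sample, Myh4 relative to Acta1 was 2.86-fold below the control ratio. Ckm was 2.15-fold below with 161569_f_at and Atp2a1 1.85-fold below with 162223_f_at. With their tested probe sets these 2 genes lay 0.42 and 0.10 log2 units above that ratio. Actn3 lay 0.07 above with 100879_at and 0.62 above with 162164_f_at, and Car3 0.48 above.

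Myh1, the heavy chain of fast type IIX myosin and no member of the 10, moved the other way from Myh4 in the same samples. Its intensity was 1365 in Spa2-2moF and 578 in Spa-sev-3moM, against 109 to 328 on control arrays and 119 to 186 in B6C3Fe. In the other spastic arrays it was 262 in Spa1-2moF, 104 and 129 in Spa-M6moF and 38.7 in Spa3+moM. Its slope on Acta1 was 0.93 (SE 0.10, limma adjusted p = 0.00128). Between spastic and control samples its log2 difference was 0.36 (SE 0.71, limma adjusted p = 0.760). Probes of the near-identical myosin heavy chain genes can share transcripts, which adds uncertainty to both. Myh2, the type IIA heavy chain, was at the floor on all 16 arrays.

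**Figure D3:**
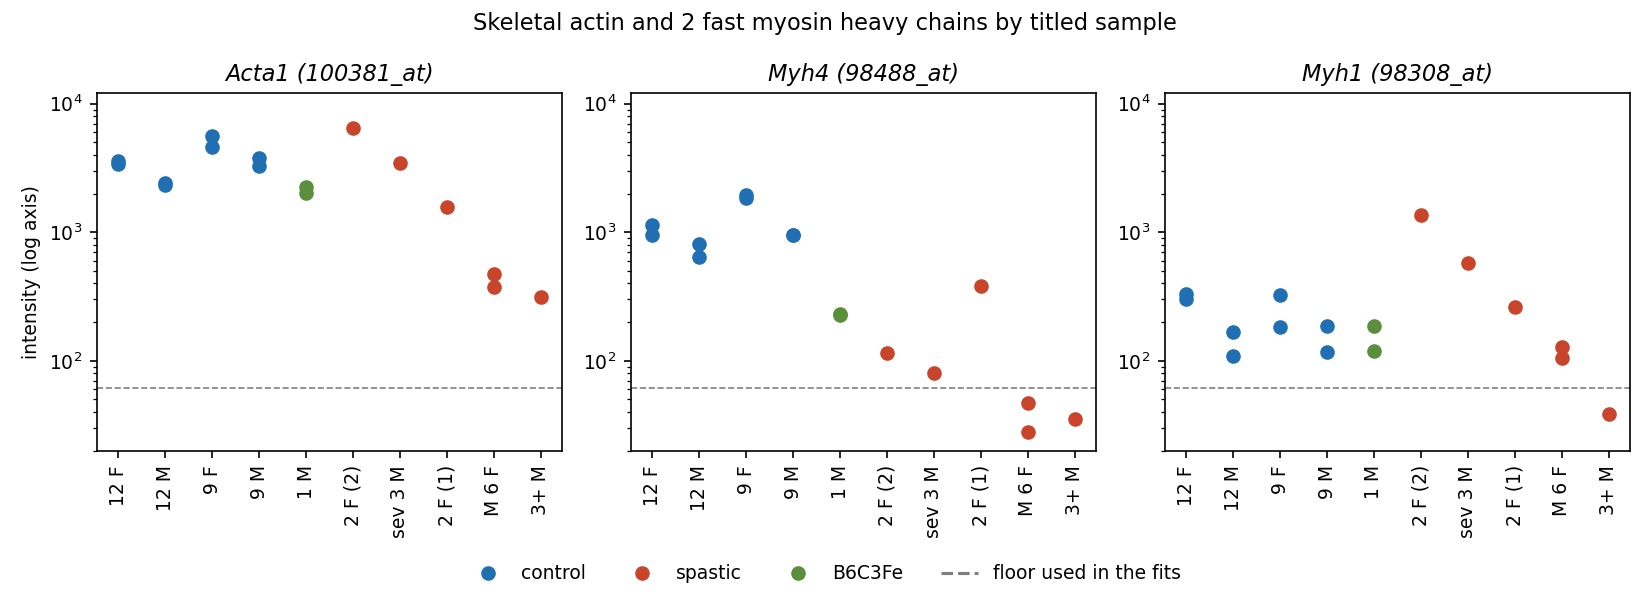
Intensity (log axis) of Acta1, Myh4 and Myh1 by titled sample, 1 point per array; the dashed line is the floor of 60.9. In Spa2-2moF Acta1 is at 6426 and Myh1 at 1365, while Myh4 is at 115, below its control minimum of 643.

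A single shared component, computed from the log2 levels of the 10 genes after taking out each gene's mean, held 80.5% of their variation over the 16 arrays, 61.7% over the 8 control arrays and 85.6% over the 6 spastic arrays. With the group means removed it held 77.2%. Genes that vary most weigh most in these shares; with every gene scaled to the same variance they were 73.0%, 55.0%, 73.6% and 62.3%. Without that scaling, the component accounted on the spastic arrays for 99.6% of the variation of Acta1, 97.7% of Atp2a1, 97.4% of Tnnt3, 96.7% of Tnnc2, 95.5% of Mylpf and 88.4% of Tnni2. It accounted for 53.6% of Car3, 41.8% of Ckm, 36.4% of Actn3 and 19.2% of Myh4. The first 6 genes thus varied together on those arrays, while the component held less of the variation of the last 4. Of these, Ckm (160175_at) and Actn3 (162164_f_at) varied little among the spastic samples, with an SD of 0.20 each. The other Ckm probe set, 161569_f_at, was not in the component. With group means removed, its correlation with Acta1 was 0.91. Computed over all 16 arrays, which takes in the differences between groups, the component held 79.8% of Myh4, 79.2% of Car3 and 67.5% of Actn3. It held 73.4% of Atp2a1, 66.4% of Tnni2 and 3.61% of Ckm there. The split into 6 and 4 genes was thus read on the spastic arrays only. These shares describe 16 arrays, of which several share a title.

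The RNA quality measure moved with the level of the muscle genes in the spastic samples. The Pcx log2 ratio was 2.98 in Spa3+moM, 2.51 in Spa-M6moF, 2.24 in Spa-sev-3moM, 2.18 in Spa1-2moF and 2.00 in Spa2-2moF, the reverse of the order of Acta1 except that Spa-sev-3moM and Spa1-2moF changed places. Once the Pcx ratio was added to the model, the slopes of Tnnt3 (0.96, adjusted p = 0.00454 in limma) and Atp2a1 (0.60, adjusted p = 0.0152) were still called and that of Tnnc2 (0.40, adjusted p = 0.691) was not. For spastic minus control, the fit with the ratio is given above, with 0 of the 9 genes and 9 of all probe sets called. Whether the ratio caused any part of the differences between groups was not tested.

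Other muscle genes were read from lists that were also chosen with earlier results known. Of 13 other genes of fast fibres 8 were tested, and 3 were called on the slope, all positive: Myh1, Myl1, a myosin light chain (0.62, SE 0.04), and Eno3, the muscle enolase (0.37, SE 0.06). Pvalb, a calcium buffer of fast fibres and also of interneurons, had a slope of 0.00 (SE 0.04). The intensities of this list summed to 15306 to 17115 in control, 13856 to 18097 in spastic and 18292 to 19548 in B6C3Fe arrays, of which Pvalb alone gave 7092 to 9733 on the spastic arrays. Of 28 genes shared by muscle types 10 were tested and 2 called: Cox6a2, a muscle subunit of cytochrome oxidase (0.85, SE 0.08), and Mb, myoglobin (0.66, SE 0.11). Mb was at 769 in Spa2-2moF and 355 in Spa-sev-3moM, against 177 to 233 in control arrays.

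Of 13 slow and cardiac muscle genes 5 were tested and 1 called, Actc1, the cardiac actin (0.33, SE 0.05), whose probe set may share transcripts with other actins. Myh7, the slow myosin heavy chain, had a slope of 0.27 (SE 0.17), and Myl3 was at the floor on all arrays. Of 12 myogenic and endplate genes 4 were tested and 0 called, with slopes between -0.08 and 0.06, and Myf5 and Musk were at the floor on all arrays. The median slope was 0.14 for the other fast genes, 0.13 for the shared genes, 0.17 for the slow and cardiac genes and 0.01 for the myogenic genes, beside 0.01 over all probe sets tested. Outside the 10 genes and the lists 1 probe set was called, that of Glrb, with a slope of 0.24 (SE 0.04, adjusted p = 0.0360 in limma).

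Markers of other tissues that could lie beside the cord were read in the same way, and 0 of each list were called on the slope; the same held for the 9 spinal cord genes. The lowest adjusted p in limma was 0.405 for the blood genes, 0.236 for the peripheral nerve genes, 0.492 for the smooth muscle genes, 0.772 for the cartilage and bone genes and 0.872 for the 1 adipocyte gene tested. S100a8 and S100a9, which mark neutrophils, had slopes of 0.60 (SE 0.19) and 0.65 (SE 0.19); S100a8 spanned 458 to 7151 on spastic and 1618 to 4381 on control arrays. The blood genes, 4 of 6 measured, summed to 17697 to 25976 in control, 13618 to 26098 in spastic and 6563 to 8860 in B6C3Fe arrays. The adipocyte genes, 8 of 10 measured, summed to 855 to 2172, 580.3 to 1210 and 967 to 1102, with Retn at the floor on all arrays. The peripheral nerve genes, 2 of 6 measured, summed to 6572 to 8501, 4869 to 9500 and 7593 to 8932. The cartilage and bone genes, 6 of 8 measured, summed to 918 to 1485, 731 to 1630 and 1713 to 1793. Their part in the levels of the 10 genes was not tested.

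**Figure D4:**
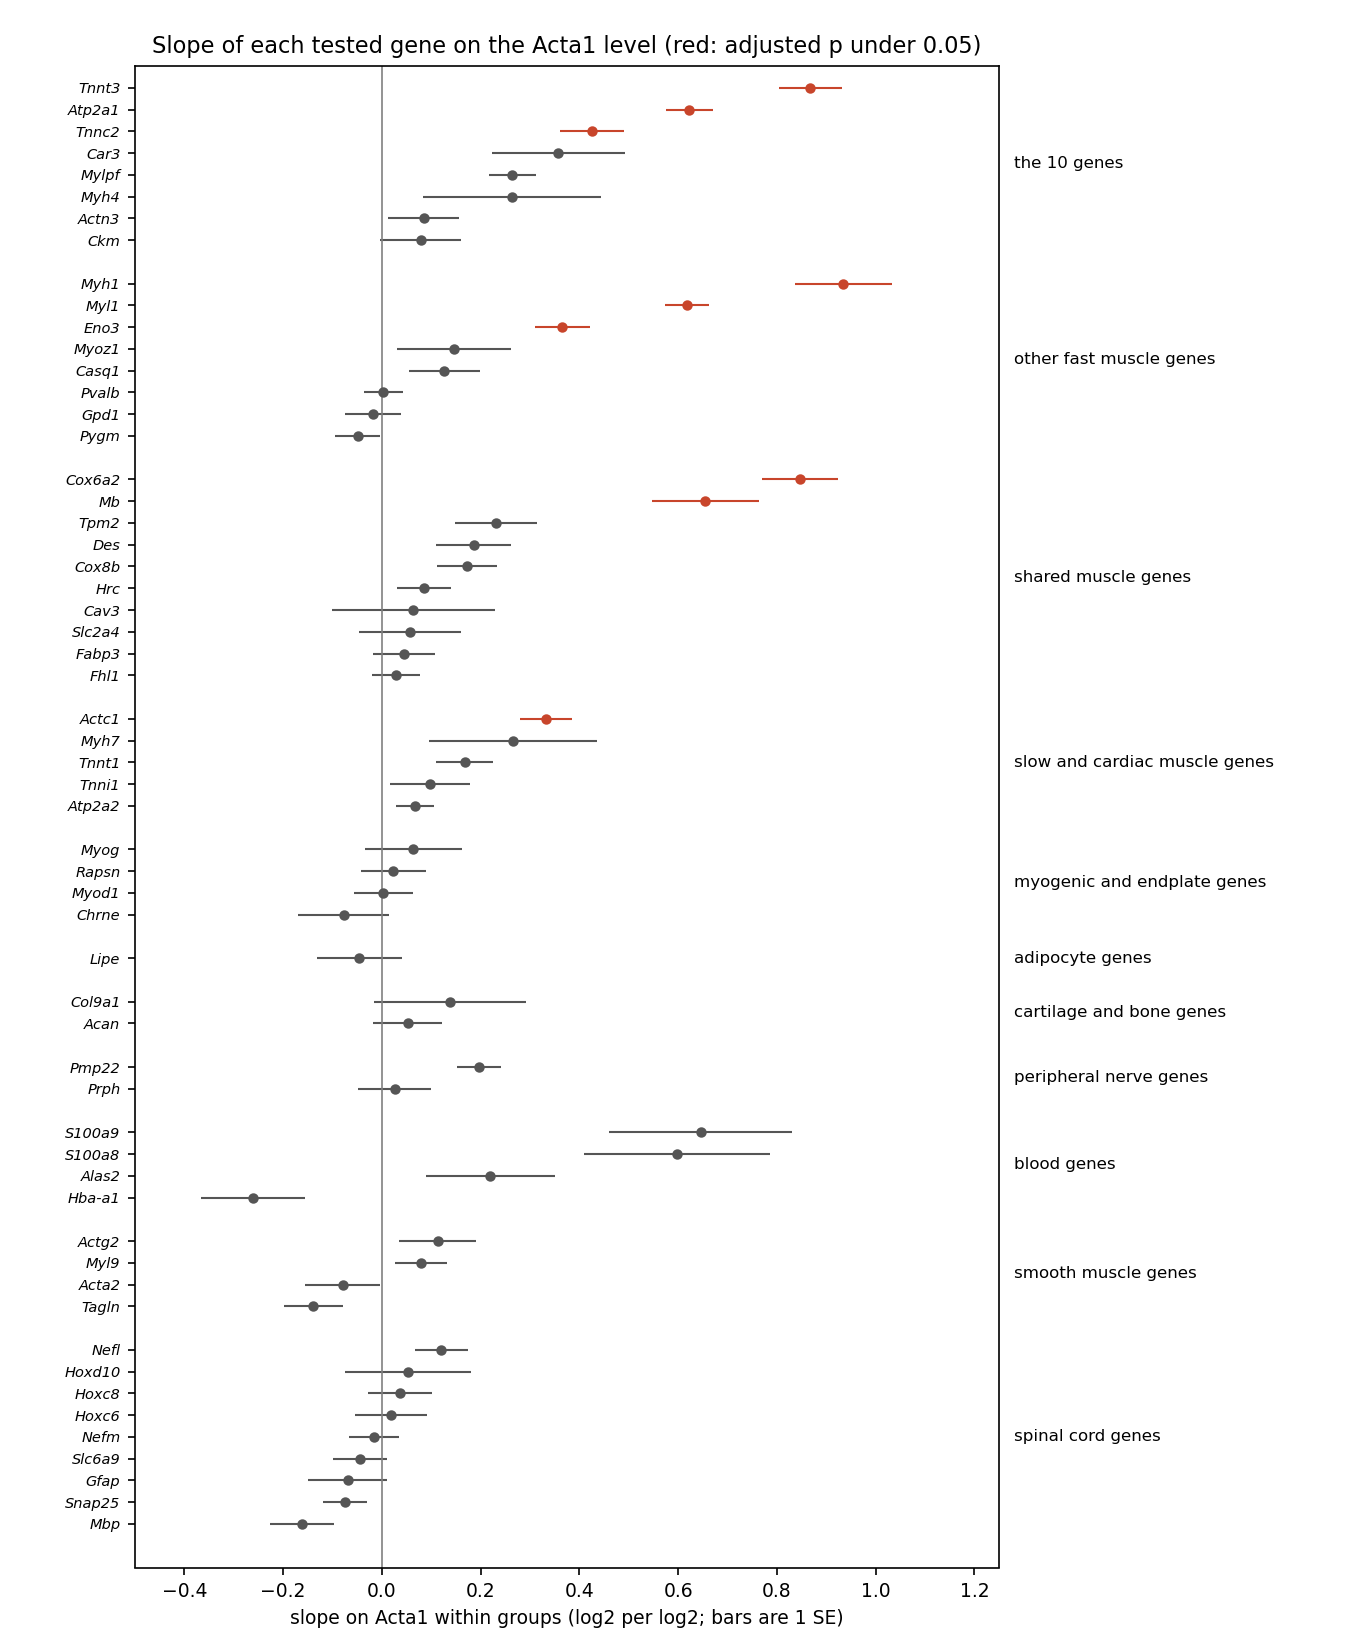
Slope of each tested gene on the Acta1 level within groups (x axis, log2 per log2, with bars of 1 SE, 10 samples), by list. The B6C3Fe sample, alone in its group, adds nothing to the slope. Red marks an adjusted p under 0.05 in limma over 6426 probe sets. The called genes are muscle genes of the first 4 groups, with slopes from 0.33 for Actc1 to 0.93 for Myh1; Glrb, which is in no list, is not drawn.

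By likeness to Acta1, measured as the correlation of log2 levels with group means removed over 10 samples, the closest probe sets outside the 10 genes were Myl1 (0.99), Farsb (0.98), Cox6a2 (0.97), Myh1 (0.96), Mrps33 (0.95), Glrb (0.95), Paip2 (0.95), Tnfrsf18 (0.95), Calu (0.94) and Eno3 (0.94). Among the 10 genes the values were 0.99 for Tnnt3, 0.98 for Atp2a1, 0.96 for Mylpf, 0.93 for Tnnc2, 0.68 for Car3, 0.56 for Actn3, 0.42 for Myh4 and 0.37 for Ckm. These are descriptions. The lone B6C3Fe sample adds nothing to them, and the samples share a scaling and, in the spastic group, a trend in the Pcx ratio.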

How the data were processed

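The authors deposited a table of linear intensities (12488 probe sets, 16 arrays); which software made them is not stated in the labels or header. The mean after trimming 2% at each end was 799.9 throughout, and no further normalization was applied. The 66 control probe sets were left out. Values under the 20th percentile (60.9) were raised to it and log2 was taken. Probe sets with a mean above the 40th percentile were tested, the highest per gene, 6427 in all. Names come from the platform annotation, in which 10833 probe sets have 1 symbol, 396 several and 1193 none.

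Arrays of a title were averaged to 10 samples. Contrasts were fitted in limma 3.58.1 (R 4.3.3; lmFit and trended eBayes) on group and titled sex, and slopes on group and Acta1, 2-sided, called at a Benjamini-Hochberg adjusted p under 0.05. The lone B6C3Fe sample was taken to vary as other samples do. Xist goes against the titled sex of 2 spastic samples, so the sex term in every contrast is uncertain. Without that term, 3 of the 9 genes were called lower for spastic minus control. The fits were also run on simulated data with independent normal noise for each probe set, without raising values to the floor. That simulation does not cover values at the floor or a shared trend in the Pcx ratio. The number of arrays limits precision.

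The 10 genes and the lists were chosen with earlier results of these data known. Named are the 10 genes, list members called or of high level, and the 10 probe sets most like Acta1. Pgam2 and other list members near the floor were not tested. Alternatives changed the floor, filter, normalization, replicates, covariates and reference gene.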

Additional observations from a re-analysis of the deposited data

Results flagged for a closer look

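In 29 groups of 4 or 5 samples examined for a lone extreme value, 2 had one. Chance gives about 1 in 20 such groups where values are not tied. Both flagged groups held samples tied at the floor, so that rate does not hold for them. Car3 (160375_at) in Spa2-2moF was at 8.19 on the log2 scale, far above the other 4 spastic samples, of which 3 were at the floor of 5.93. Mylpf (162101_f_at) in the 9-month female controls was at 6.14, on a probe set at the floor on 13 of 16 arrays. The other 3 control samples were all at the floor, so any value above it would have been flagged.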

How the results depend on the processing

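For spastic minus control, the count of 3 genes called became 1 with the floor at the 10th percentile (Actn3; Car3 was not tested) and 1 with the filter at the 60th (Mylpf, of 4 genes tested, with none of the 3 among them), 7 with arrays as single replicates or with titles as random blocks, 0 with the Pcx ratio as a covariate, and 2 to 6 when 1 sample was left out. With the letter a or b as a replicate block, 7 were called for spastic minus control, 1 for B6C3Fe minus control, 2 for spastic minus B6C3Fe and 3 on the slope; the letters are not known to pair arrays. With every array as its own replicate, 1 was called for B6C3Fe minus control and 1 for spastic minus B6C3Fe, where the random block gave 1 and leaving out samples 0 to 1. Myh4 turned to 0.17 with the floor at the 10th percentile, because its other probe set then had the higher mean. On the slope the 3 calls became 0 with Ckm, or with Tnni2 (chosen after seeing the data), in place of Acta1, and 0 with the title as a factor, where the slope of Tnnt3 turned to -0.11; that fit uses only differences between arrays a and b. Fits on the lower Ckm probe set, or on spastic samples only, each added after seeing the data, gave 2 calls. Over all alternatives the probe sets called ran from 9 to 1895 for spastic minus control, 4 to 525 for B6C3Fe minus control, 6 to 626 for spastic minus B6C3Fe, 0 to 12 for 12 minus 9 months, 0 to 3 for female minus male and 0 to 13 on the slope, and for the slope from 5 to 13 when 1 sample was left out (5 without Spa2-2moF). The contrasts with B6C3Fe could not be fitted without that sample. Signal near the floor limits Tnni2, Car3, Myh4 and the second probe sets of Mylpf and Tnnc2.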

Other observations

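Smooth muscle genes, which mark vessel walls, were also read: of 4 tested, 3 (Acta2, Tagln and Myl9) were called higher in spastic than in control samples with limma, where 9.83% of all probe sets were called higher. Acta2, the smooth muscle actin, ran from 550.5 to 828.9 on spastic, 105 to 283 on control and 104 to 177 on B6C3Fe arrays, with a log2 difference of 1.78 and an adjusted p of 0.000787 in limma. Its slope on Acta1 was -0.08. Actg2, the fourth gene tested, had a log2 difference of -0.59 (adjusted p = 0.0863 in limma), with 354 to 845 on spastic and 683 to 1050 on control arrays.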
